A study of Mus musculus with 2 samples.

Results

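Type I interferon response genes were described as a module of 42 genes in sorted brain cells of mice with the genotypes Disc1 WT/WT (control) and Disc1 LI/LI, and 40 of the 42 were found by symbol among the 32285 genes of the count tables. Mx1 and Mx2 were not analysed here. The list was given by name and not by measured values. The cells came from brains of 23-week-old male littermates, pooled from 6 mice per genotype, so that each genotype has 1 library and no test between genotypes was possible. The controls were Wildtype, and the mutants were homozygous for the Disc1 locus impairment allele, carried by every cell of the animal. Both pools were dissociated with actinomycin D, a blocker of transcription that limits gene responses to the dissociation, and CD45low CD11b+ cells were sorted and labelled as Microglia. Transcripts were counted by unique molecular identifiers (UMIs), tags that mark each captured transcript so that amplified copies are counted once.

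Type I interferons bind the receptor formed by Ifnar1 and Ifnar2, and the kinases Jak1 and Tyk2 then activate Stat2, which acts with Irf9 in a complex that enters the nucleus. This complex binds interferon-stimulated response elements near the target genes, among them sensors of viral RNA and DNA, enzymes that destroy viral RNA, proteins that block entry or release of viral particles, and the ubiquitin-like protein Isg15. In the brain, a small population of microglia with high levels of these genes is known from infection, ageing and development.

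The response element is shown here for 5 members whose UMIs lay largely or partly in a few microglia, as described further on. The letters GAAANNGAAA were searched on both strands in the 250 bases before the RefSeq start of each gene (GRCm38.p6, the patch release of the mm10 build used for counting), and overlapping matches were allowed. Of 32 members with a RefSeq window, 17 (53.1%) held at least 1 match, compared with 936 of 27025 genes (3.46%). The 5 shown here are among these 17. Members without a match included Ifit2 and Irf7, whose UMIs also lay largely or partly in a few microglia. Bst2, Trim30a and Slfn8, found in many microglia, did hold a match, and a link between match and spread over cells was not tested. Capitals mark the matches in the following stretches, each written 5′ to 3′ on the strand of its gene, so that runs starting with TTTC are the same element read from the other strand.
Ifit1 (chr19:34640780-34640818, plus strand): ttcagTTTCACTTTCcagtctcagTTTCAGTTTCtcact
Ifit3 (chr19:34583368-34583421, plus strand): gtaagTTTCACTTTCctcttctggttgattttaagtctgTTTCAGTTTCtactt
Ifit3b (chr19:34607764-34607817, plus strand): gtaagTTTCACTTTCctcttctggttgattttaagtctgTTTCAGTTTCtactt
Rsad2 (chr12:26456558-26456577, minus strand): ccaacTTTCATTTTCagaaa
Isg15 (chr4:156200870-156200901, minus strand): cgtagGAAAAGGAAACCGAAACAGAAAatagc
The stretches of Ifit3 and its close copy Ifit3b were identical, and that of Isg15 held 3 overlapping matches. All of these stretches lie before the RefSeq start of their gene. A match describes the letters only, and no binding was measured.

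The Disc1 WT/WT library held 33601957 UMIs in 7038 barcodes and the Disc1 LI/LI library 47731571 UMIs in 7834 barcodes, and 12 barcodes occurred in both. Disc1 had 642 UMIs in the Disc1 WT/WT library and 22 in the Disc1 LI/LI library. Cells under 200 genes or over 10% mitochondrial UMIs were left out, and the rest were split by marker genes that are not members. Microglia (at least 0.5% of UMIs from P2ry12, Gpr34, Tmem119, Siglech, Fcrls and Olfml3, with S100a8 and S100a9 under 1%) numbered 6180 of the 7032 cells kept from the Disc1 WT/WT library (87.9%) and 1950 of the 7817 kept from the Disc1 LI/LI library (24.9%). Neutrophils (at least 3% from S100a8 and S100a9) made up 116 (1.65%) and 3622 (46.3%), and the other cells 736 and 2245. All 10 further microglia markers were highest in the microglia and all 10 further neutrophil markers in the neutrophils, in both libraries. RNA of one class was also found in another: the 10 microglia markers reached a median of 20.8% of their microglial level in Disc1 WT/WT neutrophils and 3.84% in Disc1 LI/LI neutrophils. In the other cells this median was 22.9% (highest 51.4%) and 5.89%, with Disc1 WT/WT first. The 10 neutrophil markers reached a median of 0.0197% and 0.764% of their neutrophil level in microglia, and the 6 classical monocyte markers 1.19% and 1.87% of their level in the other cells. The classes thus differed in size and in admixed RNA between the libraries, and the part of this in the values below was not tested.

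Members were lowest in microglia and highest in the other cells when summed. Levels are UMIs of a gene per 1000000 UMIs of the class (CPM), and their 95% intervals, like those of all ratios and shares here, cover counting error only. The 40 members together made up 867.5 CPM (857 to 878) in Disc1 WT/WT microglia and 980.4 CPM (959 to 1002) in Disc1 LI/LI microglia. In neutrophils they made up 1922 and 1881 CPM, and in the other cells 3889 and 6781 CPM, with Disc1 WT/WT first. The neutrophil sum exceeded the microglial sum by 1.15 on the log2 scale (1.07 to 1.23) in Disc1 WT/WT and by 0.94 (0.91 to 0.97) in Disc1 LI/LI. This excess rested on Ifitm3: without it the log2 ratio was 0.29 in Disc1 WT/WT, while in Disc1 LI/LI it was -0.34. After each cell was thinned to 1000 UMIs, which left out 104 microglia and 1 neutrophil of Disc1 WT/WT, 17 microglia and 4 neutrophils of Disc1 LI/LI, at least 1 member UMI was present in 48.6% and 51.1% of microglia and in 76.5% and 77.6% of neutrophils. Before thinning, the median cell held 2 members in microglia, 3 in neutrophils and 5 and 8 in the other cells.

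**Figure D1:**
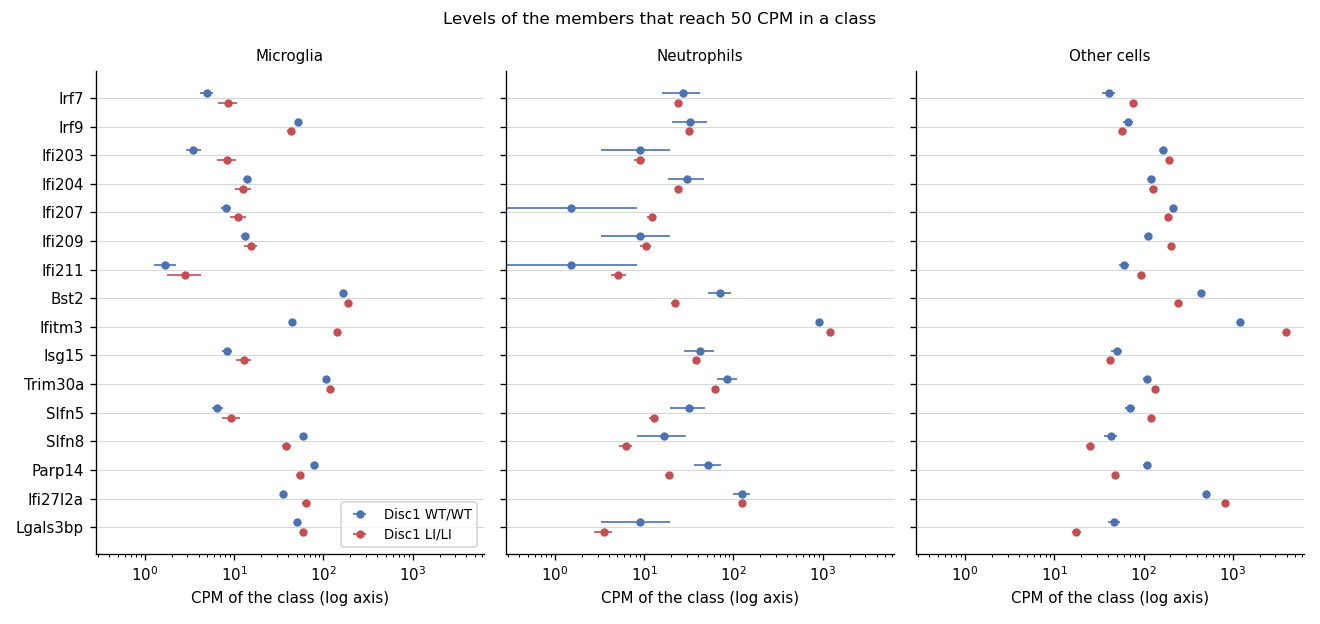
Levels of the 16 members that reached 50 CPM in at least 1 class, with the CPM of the class on a log axis and 95% Poisson intervals as bars, for Disc1 WT/WT (blue) and Disc1 LI/LI (red). Ifitm3 lies between 914 and 3956 CPM in neutrophils and other cells and at 45.0 and 141 CPM in microglia, and the PYHIN genes (Ifi203 to Ifi211) reach more than 50 CPM only in the other cells.

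Among the effectors, Ifitm3, a membrane protein that blocks the entry of viruses into cells, had the widest range. It stood at 45.0 CPM in Disc1 WT/WT and 141 CPM in Disc1 LI/LI microglia, at 914 and 1219 CPM in neutrophils, and at 1193 and 3956 CPM in the other cells. Ifitm3 UMIs were found in 94.8% and 92.3% of neutrophils (median depth 4844.5 and 4194 UMIs) and in 8.80% and 25.2% of microglia (4271 and 3787.5 UMIs), and no class known to lack the gene was at hand to give a background share. Bst2, which tethers budding virus particles to the cell surface, had another order, with 166 and 187 CPM in microglia, 70.4 and 22.2 CPM in neutrophils, and 444 and 240.1 CPM in the other cells. Rsad2, which encodes the antiviral enzyme viperin, stood at 1.40 and 2.33 CPM in microglia and at 40.5 and 23.7 CPM in neutrophils. Its neighbour Cmpk2, a nucleotide kinase of mitochondria, stood at 1.12 and 2.45 CPM in microglia and had the same neutrophil levels as Rsad2, although the counts differed cell by cell. Rsad2 (chr12:26442746-26456452) and Cmpk2 (chr12:26469204-26479837) lie side by side on opposite strands.

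The PYHIN genes encode proteins of the family that binds DNA and takes part in its sensing, and the 7 members of this family lie close together on chromosome 1. They were set apart by their level in the other cells. Ifi207 stood at 8.06 CPM in Disc1 WT/WT and 11.1 CPM in Disc1 LI/LI microglia, at 1.499 and 12.1 CPM in neutrophils, and at 215 and 189 CPM in the other cells. Ifi203 stood at 3.505 and 8.32 CPM in microglia, at 8.99 and 8.90 CPM in neutrophils, and at 164 and 191 CPM in the other cells. Ifi209 stood at 13.2 and 15.3 CPM in microglia, at 8.99 and 10.4 CPM in neutrophils, and at 112 and 201 CPM in the other cells. The other cells thus exceeded microglia for each of these 3 genes in each library, from 8.44-fold for Ifi209 to 46.8-fold for Ifi203, both in Disc1 WT/WT. Ifi204 stood at 13.8 and 12.6 CPM in microglia, 30.0 and 24.1 CPM in neutrophils and 121 and 129 CPM in the other cells. Ifi211 stood at 1.70 and 2.81 CPM in microglia, 1.499 and 5.14 CPM in neutrophils and 60.8 and 94.1 CPM in the other cells. Genes of this cluster resemble each other, so that reads may be split between them, and how the counting treated such reads is not given in the sources used here.

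Among the signalling members, Irf9 was at similar levels in the 3 classes, while Irf7, which amplifies interferon production, was low in microglia. Irf9 stood at 51.8 and 43.3 CPM in microglia, 33.0 and 31.7 CPM in neutrophils and 67.0 and 57.1 CPM in the other cells. Irf7 stood at 4.93 and 8.44 CPM in microglia, 27.0 and 23.9 CPM in neutrophils and 41.0 and 75.6 CPM in the other cells. Isg15, the ubiquitin-like protein, followed the order of Irf7, with 8.30 and 12.8 CPM in microglia, 41.97 and 38.3 CPM in neutrophils and 50.03 and 42.1 CPM in the other cells.

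Of the remaining members above 50 CPM, 4 had levels in microglia near or above those elsewhere. Trim30a, a tripartite motif protein with close copies next to it in the genome, stood at 107 and 118 CPM in microglia, 85.4 and 62.3 CPM in neutrophils and 109.7 and 133 CPM in the other cells. Parp14, an ADP-ribosyltransferase, stood at 78.7 and 54.1 CPM in microglia, 52.5 and 19.0 CPM in neutrophils and 109.7 and 47.6 CPM in the other cells. Slfn8, of the schlafen family, stood at 58.9 and 38.4 CPM in microglia, 16.5 and 6.21 CPM in neutrophils and 42.7 and 25.0 CPM in the other cells. Lgals3bp, a secreted glycoprotein that binds galectins, stood at 50.1 and 59.2 CPM in microglia, 8.99 and 3.52 CPM in neutrophils and 46.6 and 17.7 CPM in the other cells. Slfn5 and Ifi27l2a differed from these in being highest in the other cells. Slfn5 stood at 6.499 and 9.18 CPM in microglia, 31.5 and 12.8 CPM in neutrophils and 70.1 and 122 CPM in the other cells. Ifi27l2a stood at 35.2 and 63.4 CPM in microglia, 124 and 126 CPM in neutrophils and 499 and 809.7 CPM in the other cells. The other 24 members stayed under 50 CPM in every class, with medians of 3.27 CPM in Disc1 WT/WT and 4.04 CPM in Disc1 LI/LI microglia.

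Counted gene by gene, 11 of 39 members compared were at least 2-fold higher in neutrophils than in microglia in both libraries, while 8.38% of all genes were. These were Irf7, Zbp1, Isg20, Isg15, Ifitm3, Rsad2, Cmpk2 and 4 genes of the OAS family (Oas2, Oas3, Oasl1 and Oasl2). Oas3 showed the largest ratio of the members with UMIs in both classes of both libraries, with 0.340 CPM in microglia and 30.0 CPM in neutrophils of Disc1 WT/WT, and 0.612 and 23.4 CPM in Disc1 LI/LI. Ifih1, a sensor of viral RNA, Bst2, Slfn8 and Lgals3bp were at least 2-fold lower in neutrophils, 4 of 39, while 40.9% of all genes were. Under TMM scaling, which moved the neutrophil over microglia ratios of all genes up by 0.50 on the log2 scale in Disc1 WT/WT and by 1.36 in Disc1 LI/LI, the ratio of Ifih1 in Disc1 LI/LI changed sign. In the other cells, 25 of 40 members were at least 2-fold higher than in microglia in both libraries, compared with 13.6% of all genes, and 0 were 2-fold lower, compared with 13.7%.

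The other cells were a mixture, and cell groups within it differed in their summed level of the members. Cells were grouped by the largest number of detected markers of a type, and the groups named here also had genes of that type among the 10 genes with the highest fold. Several of these were the grouping markers themselves, such as Fn1 and Ccr2 in Disc1 WT/WT classical monocytes, and are no separate check of identity. Classical monocytes, 697 cells in Disc1 LI/LI and 12 in Disc1 WT/WT, held 11088 and 10390 CPM of members. Their Ifitm3 level was 6846 CPM in Disc1 LI/LI and 5935 CPM in Disc1 WT/WT, and their Ifi27l2a level was 1410 and 1493 CPM, so that the levels of the scarce Disc1 WT/WT monocytes lay near those of Disc1 LI/LI. Nonclassical monocytes held 7917 CPM in 20 Disc1 LI/LI cells and 7031 CPM in 18 Disc1 WT/WT cells. T and NK cells held 1593 CPM in 94 Disc1 LI/LI cells and 1876 CPM in 31 Disc1 WT/WT cells, and B cells 2445 CPM in 70 Disc1 LI/LI cells. In 9 plasmacytoid dendritic cells of Disc1 LI/LI, a cell type known for Bst2 on its surface, Bst2 stood at 5279 CPM. Most other cells of Disc1 WT/WT, 584 (79.3%), had microglia markers as their largest count although they did not meet the microglia rule, and so had 582 (25.9%) in Disc1 LI/LI. These groups held 3589 and 5549 CPM of members, and they were left unnamed because hemoglobin genes led in Disc1 WT/WT and immunoglobulin genes were among the leading ones in Disc1 LI/LI. Classical monocytes were 1.63% of the other cells in Disc1 WT/WT but 31.0% in Disc1 LI/LI, so that any ratio between genotypes over this class compares different mixtures.

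The members were spread over microglia in different ways, and a few cells held a large share of the UMIs of some members. Cells were called interferon-high if they had UMIs of at least 3 of 6 defining genes, Ifit1, Ifit2, Ifit3, Rsad2, Usp18 and Oasl1. Of Disc1 WT/WT microglia, 32 of 6180 (0.518%, 0.354 to 0.730) met this rule, and of Disc1 LI/LI microglia 13 of 1950 (0.667%, 0.355 to 1.14). Each share lay within the interval of the other. None of the defining genes was detected in 94.5% and 95.1% of microglia. The interferon-high cells held 0.648% of the microglial UMIs of Disc1 WT/WT and 0.883% of those of Disc1 LI/LI, but 51.8% and 61.4% of the UMIs of the defining genes. Their median depth was 4721 and 4190 UMIs, compared with 4271 and 3784 in the remaining microglia.

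**Figure D2:**
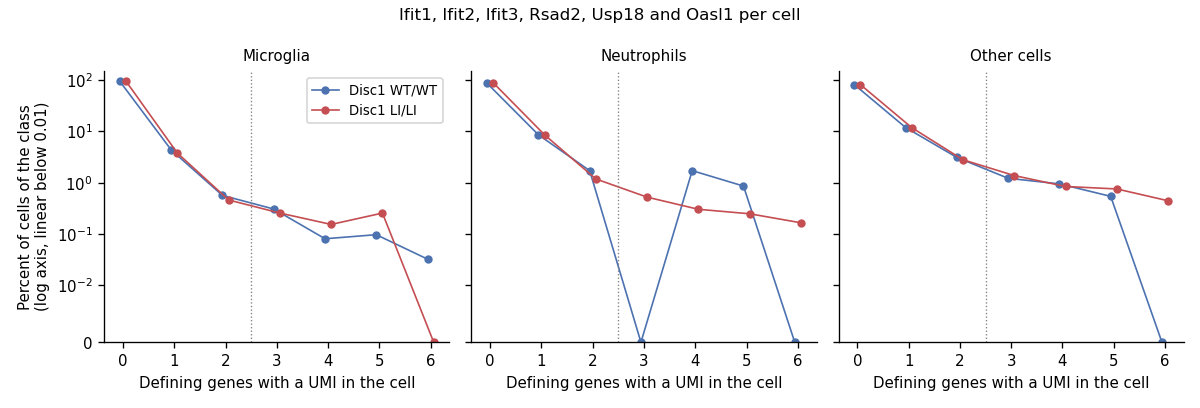
Percent of cells of each class (log axis, linear below 0.01) by the number of defining genes with a UMI, for Disc1 WT/WT (blue) and Disc1 LI/LI (red), with the rule for interferon-high cells as a dotted line. Most cells have none of the 6 genes, and 32 and 13 microglia, 3 and 45 neutrophils and 20 and 77 other cells lie right of the line.

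The microglial markers of these cells were near those of the remaining microglia, and some cells of Disc1 LI/LI also carried monocyte RNA. The 10 microglia markers made up 4.95% of UMIs in interferon-high and 5.07% in remaining Disc1 WT/WT microglia, and 5.09% and 5.92% in Disc1 LI/LI. The 6 classical monocyte markers summed to 68.3 CPM in interferon-high and 26.6 CPM in remaining Disc1 WT/WT microglia, with 2 of the 6 detected. Border macrophage markers, 6 of 6 detected, summed to 404 CPM in interferon-high and 111 CPM in remaining Disc1 WT/WT microglia and lay in 3 of the 32 cells. In Disc1 LI/LI the classical monocyte markers summed to 1954 and 71.7 CPM, with 6 of 6 detected, and 6 of the 13 interferon-high cells held them. Without the microglia that held any of these markers, the interferon-high share was 0.512% in Disc1 WT/WT, while that of Disc1 LI/LI was 0.427%. The 6 plasmacytoid dendritic cell markers had 3 UMIs in the interferon-high cells of Disc1 WT/WT and 0 in those of Disc1 LI/LI.

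Members that did not define these cells were also higher in them. Of the 34 such members measured, 29 had at least 10 UMIs in the remaining microglia of each library, a minimum chosen after seeing the data, and 29 of 29 were at least 2-fold higher in interferon-high microglia in both libraries, while 2.84% of all genes were. With the minimum set on all microglia, 31 of 31 passed, while 2.91% of all genes did, but Ifit3b, a close copy of the defining gene Ifit3, and Ifi206 reached it in Disc1 LI/LI only through the interferon-high cells. The median log2 ratio of the 31 was 4.36 in Disc1 WT/WT, or 4.58 in Disc1 LI/LI, compared with -0.08 and -0.45 over all genes. The ratios describe the cells chosen and were not tested. Oas2, Oas3 and Ifi44 had too few UMIs. When the cell with most UMIs of each gene was left out, Ifi203 and Lgals3bp fell under 2-fold, and the 14 Ifi203 UMIs of the Disc1 WT/WT cells came from 1 cell. When each cell was thinned to 1000 UMIs, 0.115% and 0.259% of microglia met the rule, and 15 of the 23 members still comparable passed 2-fold. The share of all genes was not worked out for thinned cells, so this count has nothing to be set against. With microglia markers of at least 1% of UMIs, 21 of 24 comparable members passed, while 2.11% of all genes did, and Oas1a, Isg20 and Trim30a did not. Zbp1, Ifi203, Ifi206, Ifi211 and Ifi213 were also under 2-fold but had too few UMIs to be counted. The minimum was again on all microglia.

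**Figure D3:**
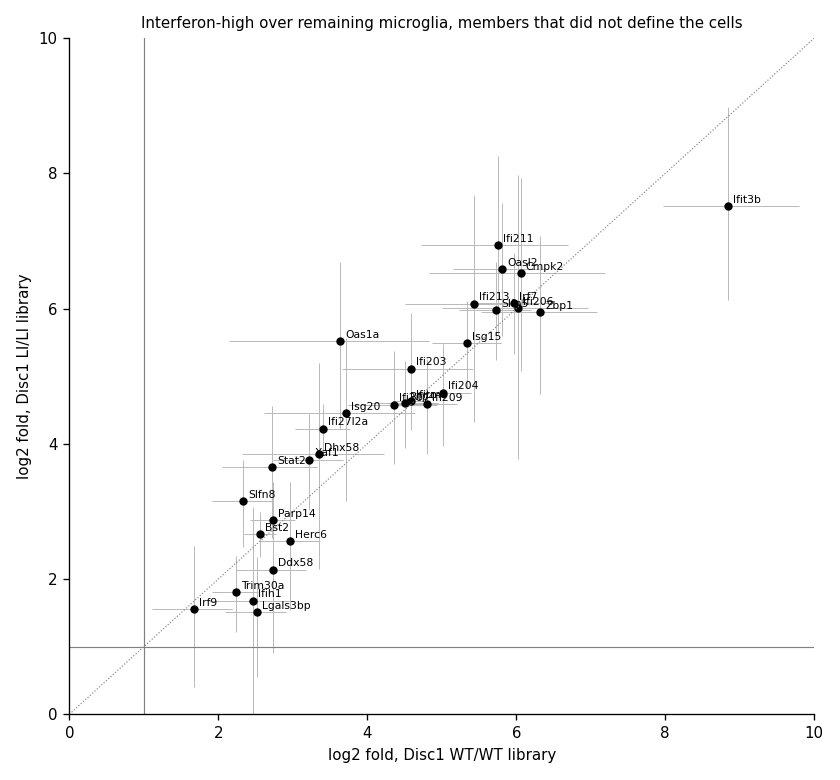
Log2 ratio of interferon-high over remaining microglia in Disc1 WT/WT (horizontal) and Disc1 LI/LI (vertical) for the 31 members compared, with 95% Clopper-Pearson intervals as bars, the line of equality dotted and 2-fold as solid lines. Irf9 lies lowest (1.67) and Ifit3b highest (8.85) along the horizontal axis.

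Irf7 stood at 220.5 CPM in interferon-high and 3.53 CPM in remaining Disc1 WT/WT microglia, and at 360.3 and 5.31 CPM in Disc1 LI/LI. Isg15 stood at 268 and 6.61 CPM in Disc1 WT/WT and at 416 and 9.26 CPM in Disc1 LI/LI, and 13 of 13 interferon-high cells of Disc1 LI/LI had an Isg15 UMI. Ifit3b stood at 236 and 0.514 CPM in Disc1 WT/WT and at 180.1 and 0.988 CPM in Disc1 LI/LI. Its response elements, printed above, are those of Ifit3, and reads may be split between these copies. Zbp1, a sensor of Z-form nucleic acids, stood at 121 and 1.51 CPM in Disc1 WT/WT and at 152 and 2.47 CPM in Disc1 LI/LI. Bst2 was high in both groups of cells, with 950.3 and 161 CPM in Disc1 WT/WT and 1136 and 179 CPM in Disc1 LI/LI.

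The share of a member's microglial UMIs held by interferon-high cells differed widely between members. In Disc1 WT/WT, these cells held 75.0% of Ifit3b, 64.3% of Ifit2, 63.1% of Ifit1 and 47.4% of Ifit3 UMIs, and in Disc1 LI/LI 61.9%, 69.8%, 66.7% and 60.9%. Ifit1, Ifit2 and Ifit3 are defining genes and Ifit3b is a close copy of Ifit3, so these shares follow in part from how the cells were chosen. The IFIT proteins bind viral RNA and block its translation. For Irf7 the share was 29.0% and 37.7%, and for Isg15 20.9% and 28.6%. At the other end stood Irf9 with 2.04% and 2.54%, Trim30a with 2.98% and 3.02%, Lgals3bp with 3.60% and 2.48%, Ifih1 with 3.48% and 2.78%, and Bst2 with 3.72% and 5.36%. Of these genes, Bst2 was detected in 46.9% and 45.1% of the remaining microglia, Trim30a in 34.4% and 33.6%, and Irf9 in 19.5% and 15.5%. Shares also varied among members found in few microglia. Interferon-high cells held 10 of 127 Isg20, 6 of 80 Oas1a and 11 of 176 Dhx58 UMIs in Disc1 WT/WT microglia. In Disc1 LI/LI microglia they held 8 of 49, 9 of 31 and 5 of 44 UMIs of the same genes. The variance of Irf9 over microglia was 1.19 and 1.09 times that given by depth alone, compared with 6.80 and 8.27 times for Ifit3. Without the interferon-high cells the Ifit3 value was 2.37 and 2.51 times. Ifit3 helped to choose those cells, so its fall follows in part from the rule.

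**Figure D4:**
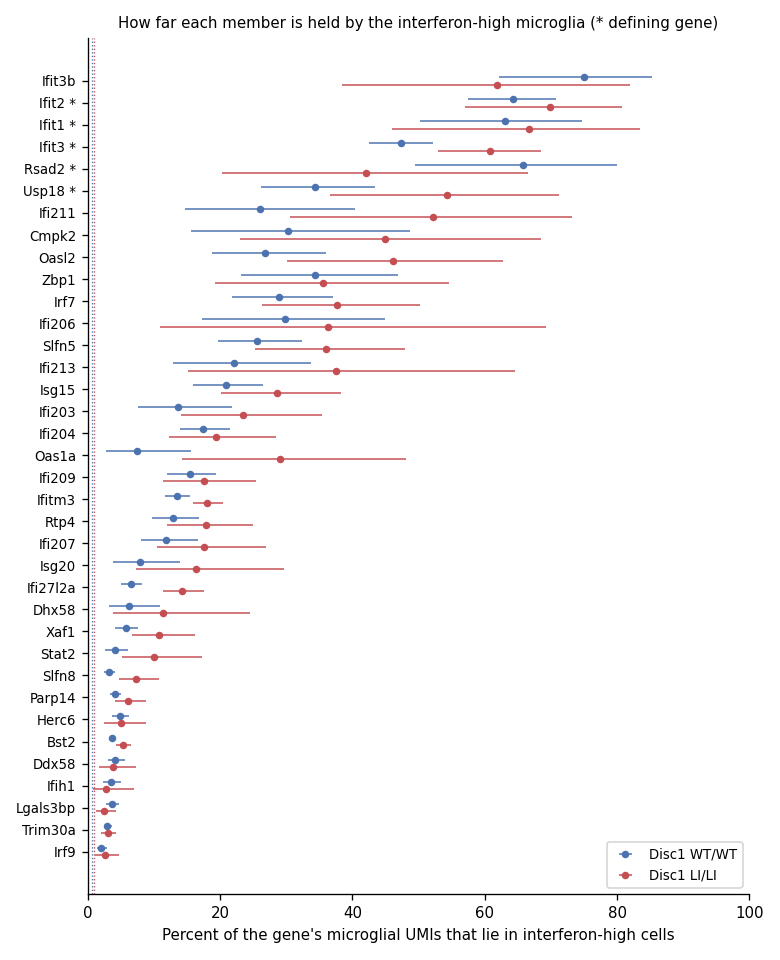
Percent of each member's microglial UMIs that lie in interferon-high cells, with 95% Clopper-Pearson intervals, for 36 members in Disc1 WT/WT (blue) and Disc1 LI/LI (red), with an asterisk for defining genes. Dotted lines mark the share of all microglial UMIs in these cells, 0.648% and 0.883%. Ifit3b (75.0% and 61.9%), a close copy of the defining gene Ifit3, lies far above them while Irf9 (2.04% and 2.54%) lies near.

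Ifitm3 was uneven over microglia also without the interferon-high cells. Its variance was 8.70 and 20.6 times that given by depth, and still 8.18 and 12.98 times without these cells. Cells with at least 5 Ifitm3 UMIs, a threshold chosen after the values were seen, were 53 microglia in Disc1 WT/WT plus 22 in Disc1 LI/LI, and held 45.7% and 48.2% of the Ifitm3 UMIs. They were deeper than the microglia with fewer Ifitm3 UMIs, with medians of 6440 against 4263 UMIs in Disc1 WT/WT and 8172 against 3771.5 UMIs in Disc1 LI/LI. The 10 microglia markers summed to 42599 against 50807 CPM in Disc1 WT/WT and to 37008 against 59638 CPM in Disc1 LI/LI. Of these cells, 14 and 5 were interferon-high. In the same cells the 6 classical monocyte markers summed to 621 CPM in Disc1 WT/WT and 1873 CPM in Disc1 LI/LI, compared with 19.4 and 47.9 CPM in microglia with fewer Ifitm3 UMIs. Ifi207 stood at 187 and 265 CPM in them, compared with 5.82 and 5.38 CPM.

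Genes outside the module were ranked for likeness to it in microglia by the lower of the 2 folds of interferon-high over remaining microglia, among 1203 genes with at least 10 UMIs in these cells of each library. This minimum is on UMIs within the interferon-high cells and favours genes that are high there, so that the ranking is a description of these cells, 6 of which in Disc1 LI/LI also held monocyte markers. The 10 first were Fgl2, Phf11d, Phf11b, Trim30c, Slfn2, Ccl2, Ly6a, Tor3a, Cybb and F13a1. Phf11b stood at 204.8 and 20.6 CPM in Disc1 WT/WT and at 319 and 18.8 CPM in Disc1 LI/LI. F13a1, one of the monocyte markers, stood at 63.0 and 12.5 CPM in Disc1 WT/WT and at 194 and 9.75 CPM in Disc1 LI/LI.

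Of 52 further pathway genes measured, 42 had enough UMIs in microglia of each library. Of these, 14 were at least 2-fold higher in interferon-high microglia in both, while 2.91% of all genes were. The minimum was on all microglia, so that a gene could reach it through the interferon-high cells. Among them were the inhibitor Socs1, the chemokines Cxcl10 and Ccl12, and the effectors Gbp2, Gbp3, Irgm1, Igtp and Eif2ak2. Ccl12 stood at 2199.9 and 93.3 CPM in Disc1 WT/WT and at 2106 and 102 CPM in Disc1 LI/LI. The receptor gene Ifnar2 stood at 394 and 392 CPM in Disc1 WT/WT and at 443 and 404 CPM in Disc1 LI/LI, and Jak1 at 294 and 306 CPM and at 180.1 and 234.6 CPM. Ifna1, Ifna2, Ifna4, Ifna5, Ifnk and Ifne had 0 UMIs in each class. Ifnb1 had 3 UMIs in the other cells of Disc1 LI/LI and 0 elsewhere. At the depth of 29387053 and 8171291 microglial UMIs, 3 UMIs of a gene correspond to 0.102 and 0.367 CPM, so lower levels could go undetected.

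Interferon-high cells were also present outside the cells that met the microglia rule. They made up 3 of 116 Disc1 WT/WT neutrophils (2.59%, 0.537 to 7.37) and 45 of 3622 Disc1 LI/LI neutrophils (1.24%, 0.908 to 1.66), and 20 of 736 (2.72%) and 77 of 2245 (3.43%) other cells. Of these 20 and 77 other cells, 13 and 20 had microglia markers as their largest count and lay in the groups left unnamed above. Markers moved with the interferon-high cells in neutrophils: the 10 microglia markers made up 2.71% of UMIs in the 3 Disc1 WT/WT cells and 1.00% in the remaining neutrophils, and 0.661% and 0.236% in Disc1 LI/LI. The 10 neutrophil markers made up 2.27% and 8.91% in Disc1 WT/WT, and 6.58% and 10.4% in Disc1 LI/LI. The part of this RNA in the values was not tested. In the 45 neutrophils of Disc1 LI/LI, Ifit3 stood at 869.9 CPM, compared with 1.4998 CPM in the remaining neutrophils. Of the 512 Rsad2 UMIs in Disc1 LI/LI neutrophils, 319 lay in the remaining cells, at 15.0 CPM. Of the members that did not define the cells, 20 of 20 compared in neutrophils were at least 2-fold higher in interferon-high cells of both libraries, while 6.36% of all genes were. In the other cells 32 of 34 were, while 2.37% of all genes were. For both classes the minimum of 10 UMIs was on interferon-high and remaining cells together. Of the 10 Ifit3b UMIs in Disc1 WT/WT neutrophils, 3 lay in the remaining cells, so the gene was compared only through the interferon-high cells. Xaf1 also had 10 UMIs in Disc1 WT/WT neutrophils. Its call needed a UMI in the interferon-high cells, so it too reached the minimum only through them. The 3 Disc1 WT/WT neutrophils held 13157 UMIs, so that a few UMIs in them can pass 2-fold, and for scarce members the outcome was close to fixed. These counts describe the cells chosen and were not tested.

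The first comparison of genotypes asked whether microglia of Disc1 LI/LI mice differed in these members from microglia of Disc1 WT/WT mice. Of 40 members, 3 were at least 2-fold higher in Disc1 LI/LI, compared with 4.06% of all 13137 genes, and 1 was 2-fold lower, compared with 5.13%. The members' median log2 ratio was 0.29 and that of all genes was -0.17. The summed level was higher in Disc1 LI/LI by 0.18 on the log2 scale (0.14 to 0.21), and by 0.03 (-0.01 to 0.07) without Ifitm3. The intervals of 14 of the 40 members lay above 0, as did those of 14.2% of all genes, and those of 7 lay below 0, as did those of 35.4% of all genes.

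The 3 higher members were Ifitm3, Ifi203 and Cmpk2. Ifitm3 had 1321 UMIs in microglia of Disc1 WT/WT but, at lower total depth, 1152 in those of Disc1 LI/LI, a 3.14-fold difference in CPM (log2 1.65, 1.53 to 1.76). Without the microglia that held a monocyte marker UMI, 5.28% of them for Disc1 WT/WT, 16.0% for Disc1 LI/LI, the log2 ratio of Ifitm3 was 1.46. Ifi203 had 103 and 68 UMIs (log2 1.25, 0.78 to 1.70), and its ratio turned to -0.25 when cells were thinned to 1000 UMIs. Cmpk2 had 33 and 20 UMIs (log2 1.12, 0.25 to 1.97). Oas2 had 15 UMIs in microglia of Disc1 WT/WT but 0 in those of Disc1 LI/LI, which makes it at least 1.39-fold lower with 0 set to 3 counts, and it passed 2-fold only with the 0.5 counts that were added for this count.

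**Figure D5:**
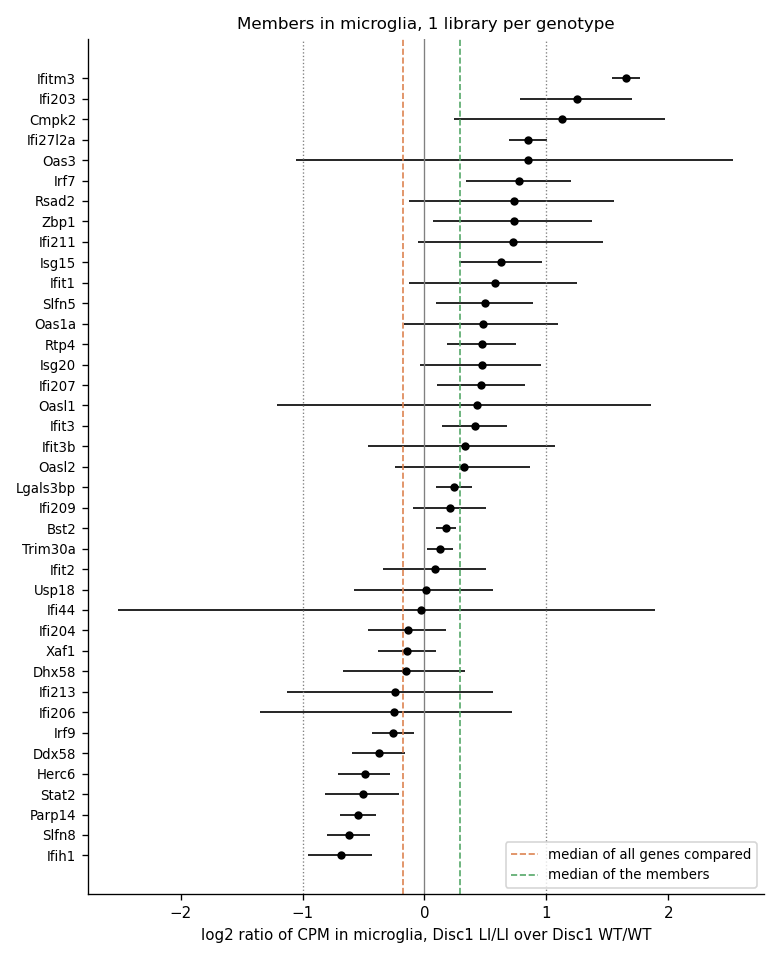
Log2 ratio of CPM in microglia, Disc1 LI/LI over Disc1 WT/WT, for the 39 members with UMIs in both libraries, with 95% Clopper-Pearson intervals, 2-fold as dotted lines and the medians of the members (0.29) and of all genes (-0.17) as dashed lines. Ifitm3 lies highest, and Ifih1, Slfn8, Parp14, Stat2, Herc6, Ddx58 and Irf9 have intervals below 0.

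The 7 members with intervals below 0 were Ifih1, Slfn8, Parp14, Stat2, Herc6, Ddx58 and Irf9, each found in 5.23% or more of microglia in both libraries. Ifih1 stood at 28.4 CPM in Disc1 WT/WT and 17.6 CPM in Disc1 LI/LI microglia (log2 -0.69, -0.95 to -0.43), Slfn8 at -0.62 (-0.80 to -0.44), Parp14 at -0.54 (-0.69 to -0.39) and Stat2 at -0.50 (-0.81 to -0.21). Of the scarcer members, Ifit1 had 65 and 27 UMIs (log2 0.58, -0.13 to 1.25), Rsad2 41 and 19 (0.74, -0.13 to 1.55) and Zbp1 67 and 31 (0.73, 0.07 to 1.37). Of the 43 pathway genes compared in microglia, 1 (Ccl5) was at least 2-fold higher in Disc1 LI/LI, compared with 4.06% of all genes. Another 2 (Tlr9 and Cxcl9) were at least 2-fold lower, compared with 5.13% of all genes. Ifnar1 stood at 80.5 CPM in Disc1 WT/WT and 44.1 CPM in Disc1 LI/LI (log2 -0.87, -1.03 to -0.71).

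The summed value in microglia depended on where the class was bounded. With microglia markers of at least 1% of UMIs the log2 ratio was 0.03, and the interferon-high share was 0.370% in Disc1 WT/WT, while that of Disc1 LI/LI was 0.338%. With at least 0.25% it was 0.47, and 12 of 40 members passed 2-fold in either direction, while 11.0% of all genes did.

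In neutrophils, the summed level did not separate the genotypes in these counts (log2 -0.03, -0.11 to 0.05), but TMM scaling, which moved all neutrophil ratios up by 0.92, gave 0.89. Without Ifitm3 and without TMM, the sum was lower in Disc1 LI/LI (log2 -0.61, -0.72 to -0.49). Of 39 members compared, 14 were at least 2-fold lower in Disc1 LI/LI, compared with 24.4% of all genes, and 2 were higher, compared with 4.70%. These counts turned with the scaling: under TMM, 3 of 39 members (Ifit2, Ifit3b and Herc6) were 2-fold lower, compared with 7.88% of all genes, and 6 (Zbp1, Ifi207, Ifi209, Ifi211, Oas1a and Ifitm3) were higher, compared with 21.8%. Ifi207 and Ifi211, the 2 higher members without TMM, had 1 UMI in the 116 Disc1 WT/WT neutrophils. The lower members included the IFIT family, most of whose Disc1 WT/WT UMIs lay in 3 interferon-high neutrophils. Those 3 cells held 9 of 9 Ifit1 UMIs, 23 of 26 Ifit3 UMIs and 8 of 9 Usp18 UMIs. Without the interferon-high neutrophils of both libraries, 3 Ifit3 UMIs were left in Disc1 WT/WT against 32 in Disc1 LI/LI, and its log2 ratio was -1.61 with an interval that spanned 0 (-3.29 to 0.74). Ifit2 stood at -1.78 (-3.25 to 0.17) in the same cells, and Ifit1 had 0 UMIs in Disc1 WT/WT against 20 in Disc1 LI/LI. Bst2 (70.4 and 22.2 CPM), Parp14 (52.5 and 19.0 CPM), Slfn8 (16.5 and 6.21 CPM) and Lgals3bp (8.99 and 3.52 CPM) were also lower, and these genes were among those with higher levels in microglia, whose markers stood at 20.8% and 3.84% of their microglial level in neutrophils of the respective library. The part of this in the difference was not tested.

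In the other cells, the summed level was higher in Disc1 LI/LI by 0.80 on the log2 scale (0.78 to 0.83), and by 0.07 without Ifitm3. Ifitm3 and Cmpk2 were at least 2-fold higher, 2 of 40, compared with 6.49% of all genes. Ddx58, Ifi213, Oas2, Parp14, Ifi44 and Lgals3bp were at least 2-fold lower, 6 of 40, compared with 26.9% of all genes. Ifitm3 was 3.32-fold higher (log2 1.73, 1.68 to 1.77), while in the classical monocytes of both libraries, whose share differed as given above, it stood at 5935 CPM in Disc1 WT/WT and 6846 CPM in Disc1 LI/LI.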

How the data were processed

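The authors pooled brains of 6 male littermates per genotype, sorted CD45low CD11b+ cells, prepared 1 droplet library per genotype and deposited UMI counts per gene and barcode, made with Cell Ranger 6.1.2 on the mm10 build per the file headers and labels. Seurat 3.0.1 and STAR are also named in the submitters' processing notes. Strand and multi-mapped read settings are not given in the sources used here. Doublets were not called, and no per-sample column was left unused (0).

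Cells under 200 genes or over 10% mitochondrial UMIs were left out, the rest were classed by marker genes (6 for microglia), and UMIs were summed per class and library. No test was possible with 1 library of each genotype. A ratio needed 10 UMIs, and "called" means 2-fold. Intervals (95%) are exact Poisson for CPM, Clopper-Pearson for shares and ratios, and cover counting error only. A count of 0 was set to 3, except that 0.5 counts were added for the median and 2-fold count in microglia between genotypes. Ratios were tested on simulated data. Members, pathway genes, markers and rules were chosen with earlier results of these data known. Members with at least 50 CPM in a class are given in full, and of the others the 5 with the largest ratio between genotypes in microglia; further members were named after their values were seen. The values of 1 of the 52 pathway genes are not reported here. Alternatives covered cell filters, marker thresholds, TMM scaling, mean CPM over cells, thinning, left-out cells, the defining rule, the UMI minimum and gene length. Python 3.11.15, numpy 2.4.6, pandas 2.3.3, scipy 1.17.1, matplotlib 3.10.9 and edgeR 4.0.16 in R 4.3.3 (TMM factors only) were used.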

Additional observations from a re-analysis of the deposited data

Results flagged for a closer look

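For 9 members the log2 ratio of Disc1 LI/LI over Disc1 WT/WT had an interval above 0 in one class of cells and below 0 in another. The differences between classes were not tested, since each genotype has 1 library, and none of the 9 was 2-fold higher in one class and 2-fold lower in another. Of all 12432 genes with enough UMIs in at least 2 classes, 5.68% had such opposite intervals. Under TMM scaling, which moved the neutrophil ratios up by 0.92, 9.57% of all genes and 5 of 40 members did. These 5 were Ifit3, Bst2 and Lgals3bp, which are among the 9, and also Irf9 and Stat2, which are not.

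Ifi207 stood at 0.47 in microglia, 3.01 in neutrophils, with 1 UMI in Disc1 WT/WT, and -0.19 in the other cells. Ifit3 stood at 0.41, -1.79 and -0.56 in the same order. Cmpk2 stood at 1.12, -0.77 and 1.19. Bst2 stood at 0.18, -1.67 and -0.89. Trim30a stood at 0.13, -0.46 and 0.28, and Slfn5 at 0.50, -1.30 and 0.80. The microglial sign of Ifi207 turned to -0.12 as the mean over cells, to -0.21 when thinned and to -0.10 without the 5% of cells with most UMIs. That of Ifit3 turned to -0.23 with microglia markers of at least 1% and to -0.0037 without interferon-high cells, and that of Slfn5 to -0.0081 without microglia holding a monocyte marker UMI.

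The remaining 3 members differed in sign between microglia and the other cells: Isg15 stood at 0.63 and -0.25, Rtp4 at 0.47 and -0.62, and Lgals3bp at 0.24 and -1.40. The neutrophil ratios of Ifit3, Bst2, Cmpk2, Trim30a and Slfn5 rest on 116 Disc1 WT/WT neutrophils.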

How the results depend on the processing

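No paired analysis was possible because each genotype has 1 library, and no replicate was left out for the same reason. Of 128 values of the 10 summary results under other settings, 84 stayed near the value reported (within its 95% interval, within 0.40 for the members' median and within 1.5 times for counts of members), 43 moved out of it and 1 changed sign; of 505 values of single members in microglia, 457 stayed, 39 moved and 9 changed sign. The cause was not tested unless the setting itself gives it. The smallest interferon-high groups (3 and 13 cells) limit the precision.

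The summed log2 ratio between genotypes in microglia (0.18) was 0.028 with markers of at least 1% and 0.47 with at least 0.25%, 0.23 under TMM, 0.10 as the mean over cells, 0.038 without the 5% of cells with most UMIs, 0.22 without cells holding RNA of the other class and 0.11 without interferon-high cells. In neutrophils (-0.031) it was 0.89 under TMM, -0.21 as the mean, -0.27 thinned to 1000 UMIs and -0.16 without cells holding RNA of the other class. In the other cells (0.80) it was 1.62 and 0.59 with the 1% and 0.25% rules, 1.29 under TMM, 0.97 as the mean, 0.98 thinned and 0.91 without the 5%. TMM moved ratios of all genes by 0.056, 0.92 and 0.48 in these 3 classes. Neutrophils over microglia in Disc1 WT/WT (1.15) was 1.34, 1.05, 1.65, 1.60, 1.72 and 1.37 under the 1% and 0.25% rules, TMM, mean, thinning and without the 5%, and 1.30 without cells holding RNA of the other class; in Disc1 LI/LI (0.94) the first 6 gave 1.28, 0.55, 2.30, 1.29, 1.30 and 1.32.

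Members past 2-fold between genotypes in microglia (4) were 12 with the 0.25% rule and 7 thinned. The interferon-high share of Disc1 WT/WT microglia (0.518%) was 0.115% thinned and 1.08% and 0.210% with 2 and 4 defining genes, and that of Disc1 LI/LI (0.667%) was 0.338% with the 1% rule and 0.259% thinned. Members at least 2-fold higher in these cells (31) were 15 thinned, where 23 could be compared, and 21 of 24 with the 1% rule. For both thinned counts of members, the share of all genes was not worked out.

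Some settings were chosen after seeing the data, as were the UMI minimum on remaining microglia (29 members), TMM for the members past 2-fold in neutrophils (9 in place of 16) and the neutrophil ratios without interferon-high cells, where Usp18 turned to 0.56 and Ifit1 gave no ratio. Without Ifitm3 the sums above were 0.029, -0.61, 0.068, 0.29 and, reversed, -0.34. Without microglia holding a monocyte marker UMI the microglial sum was 0.033, Irf7 turned to -0.19 and Slfn5 to -0.0081. Other members that turned in microglia were Ifi203 (-0.25 thinned), Ifi207 (-0.12 as the mean, -0.21 thinned, -0.10 without the 5%), Ifit3 (-0.23 with the 1% rule, -0.0037 without interferon-high cells) and Irf7 (-0.27 with the 1% rule).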
